A study of Mus musculus with 21 samples.

Results

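Interferons are secreted signals of infection. Type I interferons act through the Ifnar1 and Ifnar2 receptor, whose Janus kinases phosphorylate Stat factors; with Irf9 these form a complex that binds the interferon-stimulated response element (ISRE). Interferon gamma acts through Ifngr1 and Ifngr2 and a Stat dimer that binds the gamma-activated sequence (GAS). Their target genes encode antiviral proteins such as the Ifit, Oas, Ifitm and Gbp families, and endothelial cells meet interferon at the wall between blood and tissue. The genes described here are every row of the bulk RNA table whose symbol begins with Ifi and a digit, Ifit, Ifitm, Gbp, Oas, Isg or Stat and a digit, or is Irf and a single digit. These 64 members, of 24176 genes in the table, were chosen by this name pattern, with earlier results of these data known. The same pattern took 72 of 32285 genes in the single-cell table.

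The study compared endothelial cells of different organs. Endothelial cells were taken from the brain, the lung and the liver of C57BL/6J mice that were 2 to 4 months old, and bulk RNA gave 3 libraries from each tissue. The labels name no treatment or gene change in any group. After perfusion with cold saline and enzymatic digestion, with myelin removed from brain alone, cells were sorted as CD31+, PDGFRβ-, CD45- and negative for the dead-cell dye 7-AAD. A single further library held single-cell RNA from brain endothelial cells of the same strain and age; ATAC libraries of the series were not used here. The labels call the bulk libraries biological replicates without tying them to animals, so the p-values below measure the spread between these libraries.

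Library depth ran between 2992101 counts (lung library 2) and 25690571 counts (liver library 2). Defining endothelial markers, 9 genes with none at 0 in any tissue, summed to 7347 to 8088 CPM (counts per 1000000 of the library total) in brain, 9233 to 12433 in lung and 5346 to 5524 in liver. Markers of other cells were also present and moved with tissue. A list of 8 broad leukocyte markers summed to 27.2 to 62.8 CPM in brain with 2 of them at 0, 194 to 289 in lung and 145 to 162 in liver. T and NK cell markers, 7 genes in the table, were all at 0 in brain and summed to 26.7 to 36.7 CPM in lung and 0 to 4.58 in liver. Lung epithelial markers reached 369.6 to 1830.2 CPM in lung, highest in lung library 2, and hepatocyte markers 46.1 to 961 in brain and 276 to 691 in liver. Of the 6 hepatocyte markers, 4 were at 0 in every brain library, so the brain sum came from the rest, while none was at 0 in liver. Choroid plexus epithelial markers, 6 genes with none at 0 in brain, reached 189 to 1694 CPM in brain, 59.8 to 76.7 in lung and 31.9 to 67.8 in liver. Both hepatocyte and choroid plexus markers were highest among brain libraries in library 2, as were the members Irf3, Irf5, Ifi44 and Stat5a. Their part in the results below was not tested, and in bulk samples fewer cells of a type and less RNA per cell cannot be told apart. The members together took 0.335 to 0.387% of counts in brain, 0.451 to 0.561% in lung and 0.501 to 0.606% in liver, so the brain libraries lay below all others.

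Of the 64 members, 54 passed the filter on low counts, and 13216 genes in all were tested. A gene was called where its fold was at least 2 and the edgeR quasi-likelihood p, adjusted by Benjamini-Hochberg over those genes, was under 0.05. Against lung, 5 members were called higher in brain (among them Gbp3, Gbp7, Ifit1 and Ifit2) and 10 lower (Gbp6, Ifi203, Ifi204, Ifi30, Ifi47, Ifitm2, Ifitm3, Irf1, Irf3 and Irf8). Over all genes, 5.05% were called higher and 7.25% lower in that comparison; the members' shares were 9.26% and 18.5%. Their median log2 fold change was -0.60, against a median of 0 over all genes tested. Against liver, 5 members were called higher in brain (among them Gbp7, Ifit1, Oas2 and Oasl2) and 5 lower (Ifi203, Ifi204, Ifitm2, Irf8 and Stat6). Both shares were 9.26%, against 7.45% higher and 8.72% lower over all genes, which is close to the background, and the members' median log2 fold change was -0.18 against 0.01. Lung against liver gave 6 members higher (Gbp6, Irf1, Irf3, Oas2, Stat2 and Stat3) and 6 lower (among them Ifi203, Ifi204, Ifi44, Ifit2 and Ifitm2), or 11.1% each, against 8.04% higher and 7.02% lower over all genes. In that comparison the members' median was 0.28. Each tissue enters a pair of these comparisons, so they share libraries and are not independent. Some counts fell where a single library was left out, as did calls over all genes. The part of having fewer libraries was not tested. Over all genes, brain against lung went from 667 higher and 958 lower to 483 and 706 without brain library 1. Without brain library 3 it gave 499 and 745, without lung library 2 444 and 664, and without lung library 3 432 and 701. Brain against liver went from 985 and 1152 to 818 and 913 without brain library 1. For brain against lung, 9 members were called without brain library 1, 7 without brain library 3, 8 without lung library 2 and 7 without lung library 3. For brain against liver, 6 were called without brain library 1. For lung against liver, 7 were called without lung library 3 or without liver library 1. Members higher in brain than in lung numbered 2 without brain library 1, 3 without brain library 2, 1 without brain library 3, 2 without lung library 2 and 1 without lung library 3. Those lower in brain than in lung numbered 6 without brain library 3, lung library 2 or lung library 3. Those higher in brain than in liver numbered 2 without brain library 1, 3 without brain library 3, 3 without liver library 2 and 2 without liver library 3. Those higher in lung than in liver numbered 3 without lung library 1 or 3 and 2 without liver library 1.

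Members called higher than in both other tissues included Gbp7 and Ifit1 in brain, Gbp6, Irf1 and Irf3 in lung, and Ifi203, Ifi204 and Ifitm2 in liver. Over all genes the shares called higher than in both others were 2.41% in brain, 3.09% in lung and 3.71% in liver, beside 3 of 54 members in each tissue, a count too small to read against these shares. Those called lower than in both others included Ifi203, Ifi204, Ifitm2 and Irf8 in brain, Ifit2 in lung, and Oas2 in liver. Among members higher than in both others, the liver set of 3 stayed at 3 whichever library was left out. The brain set fell to 0 without brain library 1, brain library 3 or liver library 3. It fell to 1 without lung library 3, liver library 1 or liver library 2. The lung set fell to 1 without brain library 3, lung library 2 or 3, or liver library 1, 2 or 3, and to 1 with Rn45s and Malat1 left out. Of the 54 tested members, 21 were called in at least 1 comparison and 33 in none. The share of all genes called in at least 1 comparison was not counted, so these numbers are not read against a background.

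**Figure D1:**
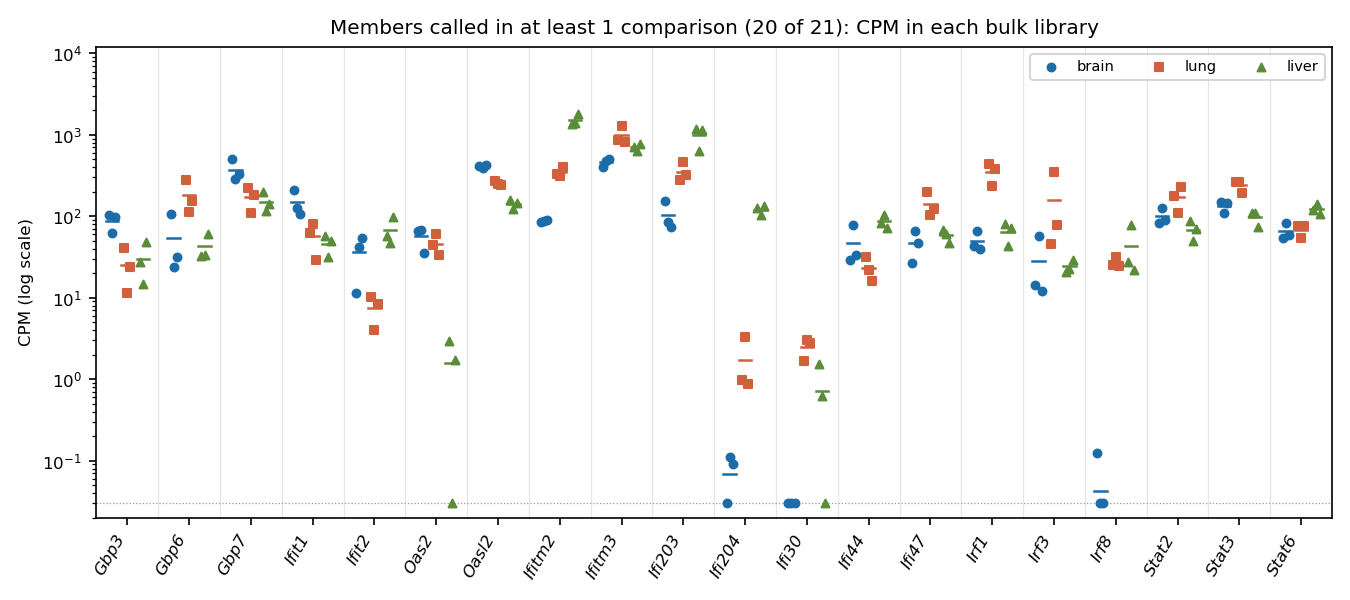
CPM (log axis) of 20 of the 21 called members in each of the 9 bulk libraries, with brain as circles, lung as squares and liver as triangles; bars are means of 3 libraries and points on the dotted line are libraries at 0. Ifitm2 stepped up in order of brain, lung and liver with no overlap, while Irf8 was near 0 in brain alone and Oas2 near 0 in liver alone.

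Promoter windows of 58 members of either table, 48 of them in the bulk table, were found by symbol among RefSeq windows of GRCm38.p6 that run 250 bases before to 50 bases after a gene's start. The ISRE core searched was GAAANNGAAA on both strands, and the GAS core was TTCNNNGAA, which reads the same on both strands; the pair overlapped only in the window of Ifitm3. The ISRE core was in a window of 28 of the 58 members (48.3%), against 1079 of 27025 genes (3.99%). The GAS core was in 12 members (20.7%), against 9.55% of genes. By family, among the 48 members of the bulk table, all 5 Gbp genes with a window held the ISRE core, as did 4 of 8 Oas genes, 2 of 3 Ifit genes and 1 of 8 Irf genes. The core was found with and without a tissue call: 7 of 17 called members with a window and 12 of 24 tested members called in no comparison held it. A match is a description of letters, not of a bound site, and no match says only that these letters are not in this window.

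The stretches of 250 bases before the start are shown for 6 members that were called in the same direction against both other tissues, with ISRE and GAS matches in capitals. Ifit1, at chr19:34640639-34640888 (plus strand), and Gbp7, at chr3:142530086-142530335 (plus strand), were highest in brain; Ifitm2, at chr7:140955962-140956211 (minus strand), and Ifi203, at chr1:173942493-173942742 (minus strand), were highest in liver. Irf1, at chr11:53769764-53770013 (plus strand), was highest in lung and Irf8, at chr8:120736108-120736357 (plus strand), was nearly absent from brain. Each runs 5′ to 3′ on the gene's strand. Where a gene had several windows, the window with the most matches before its start was taken. The stretches of Ifitm2 and Ifi203 lie inside the annotated genes, which span chr7:140954837-140959686 and chr1:173920400-173942866.
Ifit1: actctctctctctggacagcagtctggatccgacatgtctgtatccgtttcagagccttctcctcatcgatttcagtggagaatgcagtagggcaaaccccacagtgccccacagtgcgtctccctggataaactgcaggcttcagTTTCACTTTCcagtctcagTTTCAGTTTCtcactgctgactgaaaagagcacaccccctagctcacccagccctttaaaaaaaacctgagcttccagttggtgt
Gbp7: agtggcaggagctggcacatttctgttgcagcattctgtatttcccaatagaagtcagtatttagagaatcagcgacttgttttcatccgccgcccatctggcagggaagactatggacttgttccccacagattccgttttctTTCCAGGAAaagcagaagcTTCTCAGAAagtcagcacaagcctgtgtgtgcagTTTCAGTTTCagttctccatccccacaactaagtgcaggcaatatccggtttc
Ifitm2: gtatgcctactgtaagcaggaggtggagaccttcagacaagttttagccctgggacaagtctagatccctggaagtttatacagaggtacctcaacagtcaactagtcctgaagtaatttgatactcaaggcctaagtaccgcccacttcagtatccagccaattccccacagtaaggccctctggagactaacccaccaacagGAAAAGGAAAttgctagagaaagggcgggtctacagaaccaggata
Ifi203: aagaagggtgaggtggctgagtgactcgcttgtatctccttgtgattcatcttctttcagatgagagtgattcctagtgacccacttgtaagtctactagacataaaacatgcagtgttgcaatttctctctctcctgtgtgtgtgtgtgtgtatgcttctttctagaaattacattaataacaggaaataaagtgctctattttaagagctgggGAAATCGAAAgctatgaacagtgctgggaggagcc
Irf1: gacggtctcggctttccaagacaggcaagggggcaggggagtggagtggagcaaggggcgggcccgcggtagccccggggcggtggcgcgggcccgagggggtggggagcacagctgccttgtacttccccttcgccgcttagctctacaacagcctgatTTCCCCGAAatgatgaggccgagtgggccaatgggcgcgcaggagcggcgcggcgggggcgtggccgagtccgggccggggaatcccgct
Irf8: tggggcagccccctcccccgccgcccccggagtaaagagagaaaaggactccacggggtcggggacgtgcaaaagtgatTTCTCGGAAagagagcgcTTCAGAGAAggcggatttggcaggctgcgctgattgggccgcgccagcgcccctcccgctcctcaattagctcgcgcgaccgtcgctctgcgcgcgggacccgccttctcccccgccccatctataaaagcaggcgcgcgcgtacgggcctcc

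The Ifit genes, which encode tetratricopeptide proteins that bind viral RNA, did not share 1 pattern. Ifit1 had 210.3, 128 and 107 CPM in the brain libraries, 63.2, 81.5 and 28.7 in lung, against 57.4, 31.9 and 49.7 in liver. Every brain library lay above every other library, 2.61-fold over lung (log2 fold change 1.39 with SE 0.43, edgeR adjusted p = 0.0495) and 2.84-fold over liver (log2 fold change 1.51 with SE 0.43, edgeR adjusted p = 0.0274). The Ifit1 call of brain against lung ended without brain library 1, 2 or 3, or without lung library 1 or 3, or without liver library 1 or 3, with RLE size factors and with library size alone (edgeR adjusted p between 0.0574 and 0.194). The Ifit1 call of brain against liver ended without brain library 1 or 2, or without liver library 2 or 3 (edgeR adjusted p between 0.0507 and 0.123). Ifit2 was instead low in lung. Ifit2 had 11.4, 42.5 and 54.8 CPM in the brain libraries, 10.3, 4.01 and 8.38 in lung, against 57.8, 47.3 and 99.3 in liver. It was 5.03-fold higher in brain than in lung (log2 fold change 2.33 with SE 0.62, edgeR adjusted p = 0.0244) and 10.3-fold lower in lung than in liver (log2 fold change -3.36 with SE 0.65, edgeR adjusted p = 0.0031). The Ifit2 call of brain against lung ended without brain library 2 or 3, or without lung library 2 or 3 (edgeR adjusted p between 0.0622 and 0.1). Ifit3 held 44.9, 55.0 and 68.7 CPM in the brain libraries, 71.3, 27.1 and 21.2 in lung, against 70.4, 41.6 and 63.3 in liver, with overlap in each comparison and no call. Ifit1, Ifit2 and Ifit3 lie in 1 tandem cluster on chromosome 19, and how the counting divided reads among near-identical copies is not given in the sources used here.

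The Oas genes encode oligoadenylate synthetases, which sense double-stranded RNA; Oasl2 is a synthetase-like relative. Oas2 had 65.4, 68.6 and 35.9 CPM in the brain libraries, 43.9, 59.8 and 33.6 in lung, against 2.98, 0 and 1.71 in liver. Oas2 was thus near 0 in liver, 34.3-fold higher in brain than in liver (log2 fold change 5.10 with SE 1.03, edgeR adjusted p = 0.00351) and 27.1-fold higher in lung than in liver (log2 fold change 4.76 with SE 1.02, edgeR adjusted p = 0.00627). Oasl2 had 420.2, 395 and 427 CPM in the brain libraries, 269, 247 and 239 in lung, against 159.7, 122 and 146 in liver. The libraries lay in the order brain, lung and liver, highest first, without overlap, and the brain level was 2.57-fold that of liver (log2 fold change 1.36 with SE 0.23, edgeR adjusted p = 0.000815). Brain against lung passed the adjusted threshold but not the fold (log2 fold change 0.77 with SE 0.22, edgeR adjusted p = 0.037). Both calls of Oas2 and the Oasl2 call held under each alternative run. Of 12 Oas members, all on chromosome 5, 8 passed the filter, and the other 6 of those were called in no comparison.

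Isg15 had 4.65, 14.8 and 11.2 CPM in the brain libraries, 12.7, 15.4 and 9.10 in lung, against 4.81, 0.311 and 1.37 in liver. Isg15, a ubiquitin-like protein conjugated to other proteins after interferon, reached at most 15.4 CPM in any library and was not called (log2 fold change 2.16 with SE 1.00, edgeR adjusted p = 0.174 for brain against liver). Isg20l2 had 26.8, 14.4 and 21.5 CPM in the brain libraries, 23.1, 30.4 and 14.7 in lung, against 36.2, 14.5 and 16.0 in liver, overlapping in each comparison; neither it nor the exonuclease gene Isg20 was called.

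The guanylate-binding proteins are large GTPases that attack vacuoles of intracellular microbes. Their genes form a pair of clusters, 5 members on chromosome 3 (Gbp2, Gbp2b, Gbp3, Gbp5 and Gbp7) and 6 on chromosome 5 (Gbp4, Gbp6, Gbp8, Gbp9, Gbp10 and Gbp11). Gbp7 had 506, 287 and 328 CPM in the brain libraries, 222, 110.0 and 184 in lung, against 196, 118 and 142 in liver. The brain libraries were highest, 2.25-fold over lung (log2 fold change 1.17 with SE 0.31, edgeR adjusted p = 0.0245) and 2.17-fold over liver (log2 fold change 1.12 with SE 0.31, edgeR adjusted p = 0.0238). The Gbp7 call of brain against lung ended without brain library 1 or 3, or without lung library 2 or 3 (edgeR adjusted p between 0.0525 and 0.117). The Gbp7 call of brain against liver ended without brain library 1 or 3, or without liver library 2 or 3 (edgeR adjusted p between 0.0518 and 0.113). Gbp3 had 105, 61.9 and 97.1 CPM in the brain libraries, 41.1, 11.4 and 23.7 in lung, against 27.5, 14.9 and 48.5 in liver. Gbp3 was 3.59-fold higher in brain than in lung (log2 fold change 1.84 with SE 0.54, edgeR adjusted p = 0.0371), and brain libraries also lay above liver without a call (log2 fold change 1.41 with SE 0.53, edgeR adjusted p = 0.0873). The Gbp3 call of brain against lung ended without brain library 1 or 3, or without lung library 2 or 3 and with library size alone (edgeR adjusted p between 0.0567 and 0.123).

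Gbp6, on chromosome 5, went the other way. Gbp6 had 106, 24.1 and 31.8 CPM in the brain libraries, 283, 113 and 155 in lung, against 32.9, 33.9 and 61.4 in liver. It was 3.34-fold lower in brain than in lung (log2 fold change -1.74 with SE 0.54, edgeR adjusted p = 0.0489) and 3.68-fold higher in lung than in liver (log2 fold change 1.88 with SE 0.54, edgeR adjusted p = 0.031). The Gbp6 call of brain against lung ended without brain library 2 or 3, or without lung library 1, 2 or 3, or without liver library 1 or 3, with library size alone and with Rn45s and Malat1 left out (edgeR adjusted p between 0.05 and 0.196). The Gbp6 call of lung against liver ended without lung library 1 or 3, or without liver library 1 or 2 (edgeR adjusted p between 0.0538 and 0.141). Against lung, the fitted log2 fold changes of brain were -0.27 for Gbp2, 1.37 for Gbp5, -0.07 for Gbp4, -3.15 for Gbp8, 0.40 for Gbp9 and -1.93 for Gbp10, none called. Gbp9 had 381, 265 and 264 CPM in the brain libraries, 394, 113 and 208 in lung, against 257, 249 and 289.8 in liver, with no call; it had the highest mean of the family over all 9 libraries, while Gbp7 was above it in brain and Gbp4 in lung and liver. Gbp10 had 41.9, 5.96 and 12.3 CPM in brain and 120.3, 60.2 and 52.1 in lung, with no overlap. Gbp4 had 276, 171 and 229.7 CPM in the brain libraries, 442, 126 and 170.4 in lung, against 430.0, 181 and 264 in liver, so this family member overlapped in each comparison. Gbp copies are alike in sequence, and Gbp6 with Gbp10 in particular is uncertain where reads could match both.

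The Ifitm proteins sit in membranes and block virus entry, and Ifitm2 differed between all 3 tissues. Ifitm2 had 84.1, 88.0 and 89.4 CPM in the brain libraries, 332, 313 and 400.4 in lung, against 1354, 1412 and 1789 in liver. No libraries overlapped between tissues. It was 3.84-fold lower in brain than in lung (log2 fold change -1.94 with SE 0.21, edgeR adjusted p = 3.38e-05), 19.8-fold lower in brain than in liver (log2 fold change -4.31 with SE 0.23, edgeR adjusted p = 4.65e-08) and 5.15-fold lower in lung than in liver (log2 fold change -2.36 with SE 0.21, edgeR adjusted p = 6.75e-06). Ifitm3 had 404, 483 and 509 CPM in the brain libraries, 877, 1302 and 826 in lung, against 704, 638 and 782 in liver. Brain was again lowest, 2.08-fold lower than lung (log2 fold change -1.06 with SE 0.24, edgeR adjusted p = 0.00939); against liver the difference was below the fold of 2 (log2 fold change -0.78 with SE 0.24, edgeR adjusted p = 0.0366). The Ifitm3 call of brain against lung ended without brain library 1, or without lung library 2 (edgeR adjusted p between 0.0384 and 0.0509, with a fold under 2). Ifitm1, Ifitm5 and Ifitm10 passed the filter at lower levels and were not called. Of the 7 Ifitm members, all but Ifitm7 lie on chromosome 7.

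The p200 genes of chromosome 1 encode proteins that sense DNA or act in the nucleus. Ifi203 had 152, 86.1 and 73.5 CPM in the brain libraries, 278, 468 and 319.6 in lung, against 1188, 636 and 1161 in liver. Ifi204 had 0, 0.111 and 0.0918 CPM in the brain libraries, 0.973, 3.34 and 0.866 in lung, against 125, 103 and 133 in liver. Both were lowest in brain and highest in liver, with no overlap between tissues. Ifi203 was 3.35-fold lower in brain than in lung (log2 fold change -1.74 with SE 0.31, edgeR adjusted p = 0.00182) and 10.7-fold lower than in liver (log2 fold change -3.42 with SE 0.33, edgeR adjusted p = 6.52e-06). In lung it was 3.21-fold lower than in liver (log2 fold change -1.68 with SE 0.30, edgeR adjusted p = 0.00205). Ifi204 had 4 counts over the brain libraries; its log2 fold change was -10.74 for brain against liver (edgeR adjusted p = 1.54e-06) and -6.50 for lung against liver (edgeR adjusted p = 3.46e-05). Brain against lung was called at -4.24 (edgeR adjusted p = 0.00332). The Ifi204 call of brain against lung ended in a fit of only the 2 tissues compared (an edgeR adjusted p of 0.105). Ifi205 followed the same order at 0.111 to 0.459 CPM in brain, 1.06 to 2.34 in lung and 4.05 to 5.95 in liver without a call. These genes are tandem copies, so the split of reads among them is uncertain; macrophage markers, 11 genes in the table, summed to 5.80 to 36.1 CPM in brain, 27.1 to 84.0 in lung and 22.5 to 40.4 in liver, overlapping between tissues, and their part was not tested.

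Other Ifi genes were called once each. Ifi47 had 26.7, 65.8 and 46.8 CPM in the brain libraries, 196, 105 and 122 in lung, against 68.1, 61.5 and 47.3 in liver; it encodes an interferon-gamma-inducible GTPase and was 2.91-fold lower in brain than in lung (log2 fold change -1.54 with SE 0.43, edgeR adjusted p = 0.0292). The Ifi47 call of brain against lung ended without brain library 1 or 3, or without lung library 1 or 3 (edgeR adjusted p between 0.0554 and 0.127). Ifi44 had 29.2, 78.2 and 33.6 CPM in the brain libraries, 31.6, 22.1 and 15.9 in lung, against 82.4, 105 and 72.7 in liver, so lung was lowest, 4.52-fold lower than liver (log2 fold change -2.17 with SE 0.50, edgeR adjusted p = 0.0102). The Ifi44 call of lung against liver ended without lung library 3 (an edgeR adjusted p of 0.0531). Ifi30, a lysosomal thiol reductase of antigen processing, was at 0 in all brain libraries, 1.68, 3.01 and 2.74 CPM in lung and 1.51, 0.623 and 0 in liver. With 3 counts over the brain libraries taken as a floor, it was at least 45.9-fold lower in brain than in lung (edgeR adjusted p = 0.0489). The Ifi30 call of brain against lung ended without brain library 1, 2 or 3, or without lung library 1, 2 or 3, or without liver library 1 or 2, with library size alone, with no filter on low counts and with Rn45s and Malat1 left out (edgeR adjusted p between 0.0501 and 0.129). Ifi27 held 34.0, 44.2 and 59.5 CPM in the brain libraries, 35.5, 50.5 and 32.3 in lung, against 41.9, 46.3 and 47.3 in liver, with overlap in each comparison.

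The 10 members that failed the filter were Ifi202b, Ifi27l2b, Ifi44l, Ifitm6, Ifitm7, Irf4, Oas1d, Oas1e, Oas1f and Oas1h. Ifi202b, Ifi44l and Ifitm7 had no count in any library. Oas1h was at 0 in brain and lung and had 2.60, 2.06 and 0.0428 CPM in liver, at least 29.1-fold lower in brain than in liver against the floor of 3 counts over the brain libraries. Among members tested and not called, Oas1a, Oas1b, Oas1c, Oas1g, Oas3 and Oasl1 reached at most 30.7 CPM in any library, Ifi35 at most 50.8 and Ifi27l2a at most 6.35. Gbp2b was at 0 in brain and reached 2.34 CPM in lung and 0.934 in liver, and Gbp11 reached 1.76 CPM in brain, 5.35 in lung, against 0.379 in liver.

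**Figure D2:**
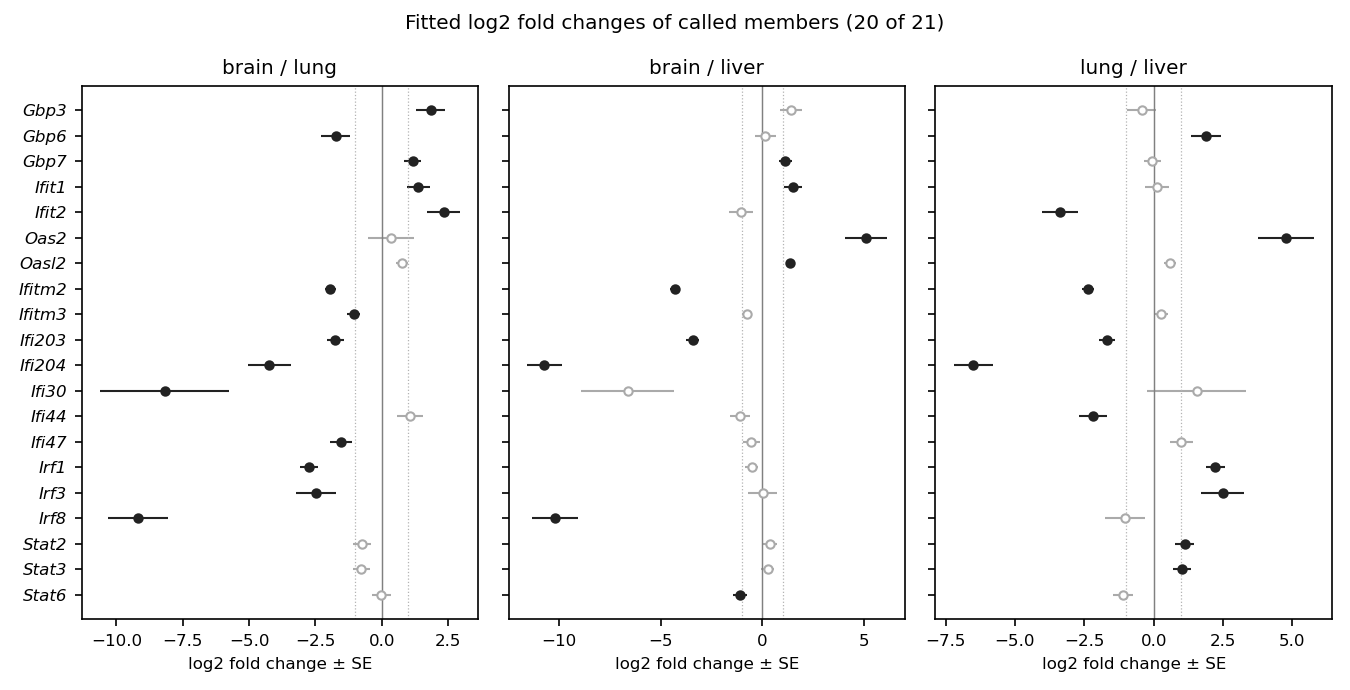
Fitted log2 fold changes with standard errors for 20 of the 21 called members in each comparison; filled points are calls, open points are not, and dotted lines mark a 2-fold difference. Ifitm2, Ifi203 and Ifi204 lay left of 0 in all 3 panels, and the values of Ifi30, Ifi204 and Irf8 rest on brain counts of 0, 4 and 2 and depend on how the fit treats zeros.

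The interferon regulatory factors are transcription factors that bind ISRE-like elements. Irf1, which is induced by interferon gamma and drives antigen presentation genes, was high in lung. Irf1 had 43.7, 66.7 and 39.2 CPM in the brain libraries, 437, 233 and 377 in lung, against 79.6, 42.8 and 71.3 in liver. Brain was 6.74-fold lower than lung (log2 fold change -2.75 with SE 0.34, edgeR adjusted p = 0.000119) and lung 4.67-fold higher than liver (log2 fold change 2.22 with SE 0.34, edgeR adjusted p = 0.000517), with no overlap; brain and liver overlapped. Both calls held under each alternative run. The GAS match of its promoter printed above starts 90 bases before the start.

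Irf8, a factor of myeloid and B cells that also appears in some endothelium, was nearly absent from brain. Irf8 had 0.126, 0 and 0 CPM in the brain libraries, 25.4, 31.8 and 24.4 in lung, against 27.6, 79.3 and 22.2 in liver. The brain libraries held 2 counts in all against 551 in lung and 3068 in liver, so the ratio of brain to lung was 0.00139 (95% interval 0.000167 to 0.00503, counting error only) and of brain to liver 0.000791 (9.58e-05 to 0.00286). Both differences were called (edgeR adjusted p = 9.25e-05 and 3.05e-05) and held under each alternative run. Broad leukocyte markers were also lowest in brain. The 8 genes of the B cell and plasmacytoid list include Bst2, which interferon also induces. They summed to 4.84 to 23.8 CPM in brain, 86.7 to 166 in lung and 63.1 to 73.9 in liver. In brain 5 of the 8 were at 0 in every library, in lung none, and in liver 5. Bst2 alone gave 60.4 to 62.0 CPM of the liver sum and 1.95 to 10.0 CPM of the brain sum. The gap between brain and liver in this list thus rested on Bst2, and without it brain was not below liver. The part of these markers was not tested. Irf4, another lymphoid factor, failed the filter with 0, 0 and 0.138 CPM in brain, 8.93, 0 and 1.16 in lung and 0 in each liver library.

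Irf3 had 14.1, 57.8 and 12.02 CPM in the brain libraries, 45.7, 349 and 78.0 in lung, against 20.6, 22.7 and 29.4 in liver; Irf3 is a latent activator of interferon genes. The lung mean rested on lung library 2, the shallowest, and brain and lung overlapped. Calls were made for brain against lung (log2 fold change -2.48 with SE 0.76, edgeR adjusted p = 0.0493) and lung against liver (log2 fold change 2.49 with SE 0.76, edgeR adjusted p = 0.0429). The Irf3 call of brain against lung ended without brain library 1 or 3, or without lung library 2 or 3, or without liver library 1, 2 or 3, with no filter on low counts, in a fit of only the 2 tissues compared and with Rn45s and Malat1 left out (edgeR adjusted p between 0.0505 and 0.416). The Irf3 call of lung against liver ended without lung library 2, or without liver library 1, 2 or 3 and with no filter on low counts (edgeR adjusted p between 0.0867 and 0.37). Irf2, Irf5, Irf7 and Irf9 were not called. Irf2, which opposes Irf1 at shared sites, had 57.6, 37.6 and 54.4 CPM in brain, 72.3, 107 and 60.5 in lung, against 77.8, 159.7 and 60.1 in liver. Irf7, the inducible amplifier of type I interferon, had 32.7, 20.7 and 16.6 CPM in brain, 27.9, 10.4 and 26.1 in lung, against 13.8, 11.7 and 6.21 in liver. Irf9, the DNA-binding partner of Stat2 in the ISRE complex, had 65.7, 111 and 64.1 CPM in brain, 154, 122 and 129 in lung, against 56.4, 167 and 33.8 in liver. The brain libraries lay below both lung and liver for Irf2 and below lung for Irf9, without a call, and above liver for Irf7 (log2 fold change 0.91 with SE 0.63, edgeR adjusted p = 0.385). Irf5, a factor of toll-like receptor signalling, had 0.377, 6.08 and 0.413 CPM in brain, 2.92, 12.7 and 4.33 in lung, against 0, 0 and 1.16 in liver.

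Stat2 had 82.2, 127 and 90.3 CPM in the brain libraries, 179, 111 and 231 in lung, against 86.9, 50.4 and 69.0 in liver; Stat2, which carries type I signals, was 2.17-fold higher in lung than in liver (log2 fold change 1.11 with SE 0.34, edgeR adjusted p = 0.0421). The Stat2 call of lung against liver ended without brain library 3, or without lung library 1 or 3, or without liver library 1, 2 or 3 and with no filter on low counts (edgeR adjusted p between 0.0519 and 0.195). Stat3 had 151, 109.9 and 145 CPM in the brain libraries, 267, 262 and 191 in lung, against 109, 111 and 73.2 in liver; Stat3 serves the interleukin-6 family and was 2.05-fold higher in lung than in liver (log2 fold change 1.03 with SE 0.32, edgeR adjusted p = 0.0449). The Stat3 call of lung against liver ended without brain library 1, 2 or 3, or without lung library 1, 2 or 3, or without liver library 1 or 3 and in a fit of only the 2 tissues compared (edgeR adjusted p between 0.0525 and 0.152).

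Stat6 had 54.3, 82.4 and 59.3 CPM in the brain libraries, 75.7, 53.5 and 76.7 in lung, against 119, 141 and 106 in liver; Stat6 carries interleukin-4 signals and was 2.17-fold lower in brain than in liver (log2 fold change -1.12 with SE 0.35, edgeR adjusted p = 0.0451). The Stat6 call of brain against liver ended without brain library 1, 2 or 3, or without lung library 1 or 3, or without liver library 1 or 2, with library size alone, with no filter on low counts and in a fit of only the 2 tissues compared (edgeR adjusted p between 0.0541 and 0.16). Stat6 overlaps Nab2 in the annotation, and strand use in the counting is not given in the sources used here. Stat5a, which carries cytokine and growth hormone signals, had 1.82, 8.53 and 1.42 CPM in brain and 39.4, 32.4 and 17.6 in lung with no overlap (log2 fold change -2.89 with SE 0.96, edgeR adjusted p = 0.0658). Stat5b held 31.7, 23.02 and 31.1 CPM in brain, 37.7, 13.0 and 34.9 in lung, against 22.4, 29.3 and 54.8 in liver. Stat4, of T and NK cells, was at 1.01, 0 and 0 CPM in brain, 9.28, 2.01 and 4.91 in lung, against 0, 0.311 and 0.171 in liver, highest in lung as were T and NK cell markers, whose part was not tested.

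**Figure D3:**
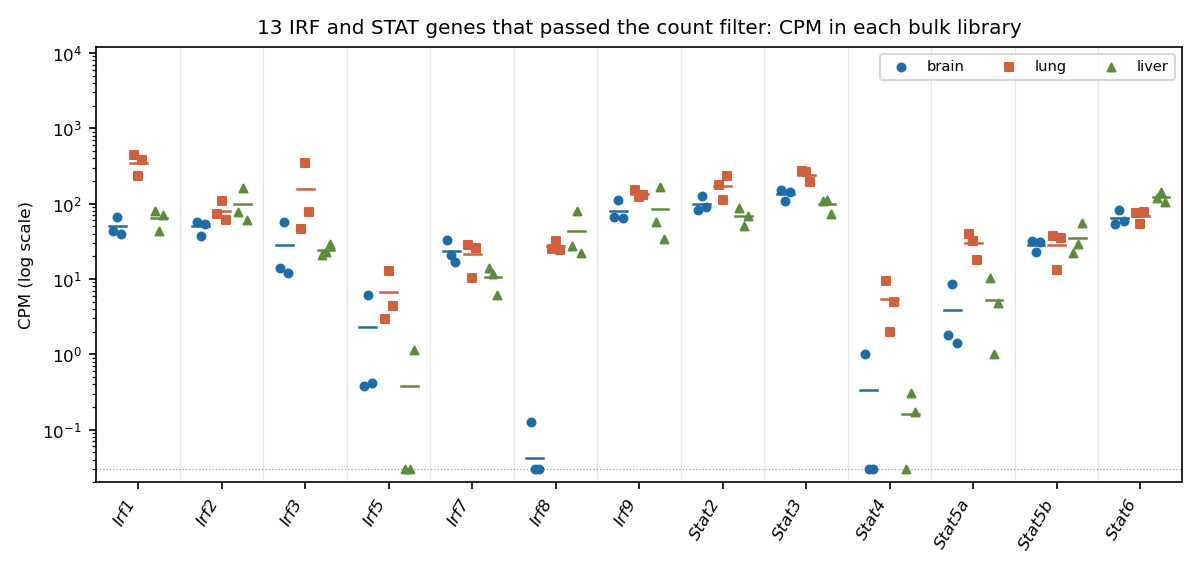
CPM (log axis) of 7 Irf and 6 Stat genes that passed the filter, in each bulk library; bars are means of 3 libraries and points on the dotted line are libraries at 0. Irf1 stood apart in lung and Irf8 in brain.

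The genes upstream of the members were taken from lists made for this comparison. Of 12 interferon genes in the table, 10 had no count in any library, and none passed the filter. Ifnk had 37 counts over the brain libraries, 0 over lung and 31 over liver, and Ifng had 8 counts in lung and 0 in brain and liver. Of 6 receptor genes, 5 passed. Brain exceeded lung in 3 calls (60%, against 5.05% of all genes) and lay below it in 1 (20%, against 7.25%). It exceeded liver in 2 calls (40%, against 7.45%) and lay below it in 0 (against 8.72%). Shares of 5 genes are coarse. Ifnar1 had 741, 389 and 567 CPM in the brain libraries, 129, 136 and 135 in lung, against 81.5, 122 and 59.0 in liver. This type I receptor chain was 4.39-fold higher in brain than in lung (log2 fold change 2.13 with SE 0.36, edgeR adjusted p = 0.00152) and 5.42-fold higher than in liver (log2 fold change 2.44 with SE 0.37, edgeR adjusted p = 0.000375), and both calls held under each alternative. Ifnar2 had 116, 142 and 143 CPM in the brain libraries, 69.9, 62.5 and 65.7 in lung, against 58.4, 58.1 and 84.4 in liver; the second chain was 2.10-fold higher in brain than in lung (log2 fold change 1.07 with SE 0.32, edgeR adjusted p = 0.0419). The Ifnar2 call of brain against lung ended without brain library 1, 2 or 3, or without lung library 1, 2 or 3, or without liver library 1 or 3, with RLE size factors, with library size alone and with no filter on low counts (edgeR adjusted p between 0.0504 and 0.141). Il10rb had 105, 63.8 and 137 CPM in the brain libraries, 18.7, 24.7 and 17.9 in lung, against 30.7, 15.7 and 23.5 in liver; this chain, shared by the receptors of interleukin-10 and interferon lambda, was higher in brain than in lung (log2 fold change 2.38 with SE 0.46, edgeR adjusted p = 0.00353) and than in liver (log2 fold change 1.98 with SE 0.45, edgeR adjusted p = 0.0072). The Il10rb call of brain against liver ended without brain library 3 (an edgeR adjusted p of 0.0515).

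Ifngr1 had 45.01, 36.0 and 32.6 CPM in the brain libraries, 108, 181 and 107 in lung, against 49.7, 54.2 and 34.1 in liver. The ligand-binding chain of the interferon gamma receptor was thus 3.41-fold lower in brain than in lung (log2 fold change -1.77 with SE 0.41, edgeR adjusted p = 0.0107) and 2.39-fold higher in lung than in liver (log2 fold change 1.26 with SE 0.40, edgeR adjusted p = 0.0491). The Ifngr1 call of brain against lung ended without lung library 2 (an edgeR adjusted p of 0.0546). The Ifngr1 call of lung against liver ended without brain library 1, 2 or 3, or without lung library 1, 2 or 3, or without liver library 1 or 3, with no filter on low counts, in a fit of only the 2 tissues compared and with Rn45s and Malat1 left out (edgeR adjusted p between 0.0531 and 0.194). Its partner chain Ifngr2 was not called (log2 fold change -1.87 with SE 0.64, edgeR adjusted p = 0.0724 for brain against lung).

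Among the Janus kinases, Jak1, which serves all interferon receptors, was called in all 3 comparisons. Jak1 had 128, 121 and 98.5 CPM in the brain libraries, 409, 246 and 321 in lung, against 1255, 1557 and 1192 in liver. Brain was 2.71-fold lower than lung (log2 fold change -1.44 with SE 0.26, edgeR adjusted p = 0.0022) and 13.5-fold lower than liver (log2 fold change -3.75 with SE 0.28, edgeR adjusted p = 8.03e-07), and lung 4.96-fold lower than liver (log2 fold change -2.31 with SE 0.27, edgeR adjusted p = 5.27e-05); these calls held under each alternative. Jak2 had 151, 82.2 and 85.3 CPM in the brain libraries, 56.4, 31.4 and 46.9 in lung, against 145, 101 and 109 in liver; Jak2, of the interferon gamma receptor, was higher in brain than in lung (log2 fold change 1.28 with SE 0.36, edgeR adjusted p = 0.0313) and lower in lung than in liver (log2 fold change -1.63 with SE 0.36, edgeR adjusted p = 0.00827). The Jak2 call of brain against lung ended without brain library 1 or 3, or without lung library 2 or 3 (edgeR adjusted p between 0.0502 and 0.143). Tyk2 and Jak3 were not called.

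Of 8 feedback inhibitors, Socs3 and Cish were called. Brain lay below lung in 2 calls (25%, against 7.25% of all genes) and below liver in 1 (12.5%, against 8.72%). Lung exceeded liver in 2 (25%, against 8.04%). Shares of 8 genes are coarse. Socs3 had 29.2, 10.8 and 9.64 CPM in the brain libraries, 504, 806 and 425 in lung, against 43.0, 68.1 and 37.5 in liver. Socs3, which blocks Janus kinases, was 34.5-fold lower in brain than in lung (log2 fold change -5.11 with SE 0.53, edgeR adjusted p = 2.55e-05), below liver in brain (log2 fold change -1.85 with SE 0.46, edgeR adjusted p = 0.0134) and 9.56-fold higher in lung than in liver (log2 fold change 3.26 with SE 0.49, edgeR adjusted p = 0.000451). The Socs3 call of brain against liver ended without brain library 2 or 3, or without liver library 2 and in a fit of only the 2 tissues compared (edgeR adjusted p between 0.0524 and 0.0666). Cish had 2.39, 12.2 and 6.75 CPM in the brain libraries, 253, 229 and 161 in lung, against 9.25, 9.03 and 28.7 in liver; Cish, which restrains Stat5, was below lung in brain (log2 fold change -4.85 with SE 0.65, edgeR adjusted p = 0.000215) and higher in lung than in liver (log2 fold change 3.59 with SE 0.61, edgeR adjusted p = 0.00132). Usp18, which restrains type I signalling, had 17.6, 14.2 and 21.8 CPM in brain, 13.1, 9.02 and 7.94 in lung, against 7.36, 1.44 and 12.6 in liver and was not called.

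Of 22 tested genes induced by interferon gamma or used in antigen processing, brain lay below lung in 8 calls (36.4%, against 7.25% of all genes) and above it in 0 (against 5.05%); their median log2 fold change was -1.51. Against liver, 6 calls were lower in brain (27.3%, against 8.72% of all genes) and 1 was higher (4.55%, against 7.45%). Lung lay above liver in 5 calls (22.7%, against 8.04%) and below it in 1 (4.55%, against 7.02%). H2-D1 had 324, 305 and 183 CPM in the brain libraries, 1249, 1766 and 1572 in lung, against 616, 756 and 681 in liver. This MHC class I heavy chain was 5.51-fold lower in brain than in lung (log2 fold change -2.46 with SE 0.27, edgeR adjusted p = 3.54e-05) and 2.95-fold lower than in liver (log2 fold change -1.56 with SE 0.26, edgeR adjusted p = 0.000834). Tap1 had 35.3, 33.4 and 22.7 CPM in the brain libraries, 94.3, 104 and 91.0 in lung, against 29.5, 12.2 and 21.9 in liver; this peptide transporter was 3.08-fold lower in brain than in lung (log2 fold change -1.62 with SE 0.42, edgeR adjusted p = 0.0196). The Tap1 call of brain against lung ended without brain library 2 or 3, or without lung library 1, 2 or 3 (edgeR adjusted p between 0.0521 and 0.0806). H2-T23 had 38.1, 39.8 and 23.4 CPM in the brain libraries, 91.1, 135 and 83.8 in lung, against 134, 135 and 91.2 in liver; this nonclassical class I chain was called lower in brain than in lung (log2 fold change -1.58 with SE 0.38, edgeR adjusted p = 0.0148) and than in liver (log2 fold change -2.06 with SE 0.39, edgeR adjusted p = 0.00219). The H2-T23 call of brain against lung ended without brain library 3, or without lung library 2 (edgeR adjusted p between 0.0604 and 0.0652). The class II transactivator Ciita, with 0, 0.725 and 0 CPM in brain, 32.5, 31.4 and 36.1 in lung and 0 in each liver library, was called lower in brain than in lung (edgeR adjusted p = 0.0103). B cell markers were likewise highest in lung, and their part in Ciita and Tlr9 was not tested. The chemokine Cxcl9 was at 0 in brain, 0.265, 0 and 0 CPM in lung and 40.6, 57.5 and 56.4 in liver, and was called lower in brain than in liver (edgeR adjusted p = 2.89e-05). MHC genes are alike in sequence, so the division of reads among them is uncertain.

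Of 31 tested type I targets outside the members, brain lay above lung in 3 calls and below it in 3 (9.68% each, against 5.05% and 7.25% of all genes). Brain lay above liver in 4 calls (12.9%, against 7.45%) and below it in 3 (9.68%, against 8.72%). Lung lay above liver in 2 calls (6.45%, against 8.04%) and below it in 3 (9.68%, against 7.02%). These shares are close to the background. Rsad2 had 213, 137 and 195 CPM in the brain libraries, 33.1, 4.01 and 7.51 in lung, against 135, 117 and 145 in liver. Rsad2, the antiviral enzyme viperin, was 12.4-fold higher in brain than in lung (log2 fold change 3.64 with SE 0.61, edgeR adjusted p = 0.00134) and 10.3-fold lower in lung than in liver (log2 fold change -3.36 with SE 0.60, edgeR adjusted p = 0.00192). Sp100 had 125, 142 and 84.5 CPM in the brain libraries, 53.6, 17.4 and 32.6 in lung, against 207, 232 and 188 in liver; this nuclear body protein had its lowest values in lung as well (log2 fold change 1.80 with SE 0.40, edgeR adjusted p = 0.00863 for brain against lung and log2 fold change -2.86 with SE 0.41, edgeR adjusted p = 0.000367 for lung against liver). Bst2 had 1.95, 10.0 and 9.91 CPM in the brain libraries, 24.1, 36.4 and 26.6 in lung, against 62.0, 61.8 and 60.4 in liver; Bst2, which tethers budding virus to the cell, was 9.47-fold lower in brain than in liver (log2 fold change -3.24 with SE 0.63, edgeR adjusted p = 0.00271). Slfn2, a Schlafen family gene, had 17.0, 16.6 and 8.95 CPM in brain and 0.433, 1.48 and 1.11 in liver (log2 fold change 3.54 with SE 0.96, edgeR adjusted p = 0.021). The Slfn2 call of brain against liver ended without brain library 1 or 2, or without liver library 1 or 3 (edgeR adjusted p between 0.0607 and 0.0705). Ly6e had 1834, 2227 and 1788 CPM in the brain libraries, 2513, 4496 and 3199 in lung, against 565, 659 and 561 in liver; Ly6e, a membrane protein that restricts coronaviruses, was 2.83-fold higher in brain than in liver (log2 fold change 1.499 with SE 0.25, edgeR adjusted p = 0.000844). Of 16 nucleic acid sensors and adaptors, 2 were called in any comparison, Ifih1 (the RNA sensor MDA5) and Tlr9. Brain lay above lung in 1 call (6.25%, against 5.05% of all genes) and below it in 1 (6.25%, against 7.25%). Lung lay above liver in 1 (6.25%, against 8.04%). These shares are also close to the background. Ifih1 had 340.3, 180.4 and 165 CPM in the brain libraries, 119.7, 60.2 and 91.3 in lung, against 140.4, 122 and 94.7 in liver, higher in brain than in lung (log2 fold change 1.38 with SE 0.36, edgeR adjusted p = 0.0234). The Ifih1 call of brain against lung ended without brain library 1, or without lung library 2 or 3 (edgeR adjusted p between 0.0809 and 0.123). Tlr9, an endosomal DNA sensor, was at 0 in every brain and liver library and had 6.46, 4.01 and 8.66 CPM in lung, and was called for brain against lung (edgeR adjusted p = 0.0189) and for lung against liver (edgeR adjusted p = 0.0163). The Tlr9 call of brain against lung ended without brain library 1, 2 or 3, or without lung library 1, 2 or 3 (edgeR adjusted p between 0.0508 and 0.0726). The Tlr9 call of lung against liver ended without lung library 1 or 3 (edgeR adjusted p between 0.0553 and 0.0633).

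The single-cell library put the members on individual brain cells. With 1 library there is no test, and the intervals below cover counting error alone. Of 9405 barcodes, 8797 with at least 1000 UMIs (unique molecular identifiers, each a counted molecule) and under 20% mitochondrial UMIs were kept, at a median of 4590 UMIs. They were clustered without the members or the pathway genes into 10 clusters, of which 7, with 8263 cells, carried at least 9500 CPM of UMIs (UMIs per 1000000 of a cluster) for the defining endothelial markers and are called endothelial-like; this limit was set after the values were seen. Cluster 5 lay just below it at 9145 CPM of UMIs, with 2.71% of kept cells. Within the 7, cluster 3 was venous-like (Vcam1, Lcn2, Icam1 and Ackr1 among its leading genes, beside the inflammatory genes Ptgs2, Cxcl1 and Sele), cluster 6 fenestrated-like (Plvap, Plpp3 and Esm1), and cluster 7 arterial-like (Mgp, Gkn3 and Bmx). Cluster 4 was led by heat shock and immediate-early genes (Hspa1b, Fosb and Fos). The doublet caller marked 0 of 8797 cells, so it had not worked, and doublets were not removed. Broad leukocyte markers, 8 genes, summed to 6.59 to 35.6 CPM of UMIs in the endothelial-like clusters other than the arterial-like one, which held 99.0.

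Of the 72 members in this table, 42 were seen in at least 1% of endothelial-like cells, 28 in at least 10%, and 11 had no UMI in them. Ifitm3 was found in 84.5% of cells (95% exact interval 83.7 to 85.3%) and Ifitm2 in 70.8%. Irf2 followed with 61.2%, Ifi27 with 52.8% and Gbp7 with 47.9%. Irf9 was seen in 39.3% of cells, Ifi35 in 38.9%, Stat3 in 36.5% and Stat2 in 31.6%.

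Free RNA can place a UMI in a cell that does not make it. An erythroid-like cluster of 248 barcodes, whose own RNA is hemoglobin, served as the background; it held a median of 311 UMIs outside erythroid genes, against 4634 in endothelial-like cells. There the share was 27.0% for Ifitm3, 21.0% for Ifitm2, 14.9% for Irf2 and 10.5% for Gbp7. Of the 42 members, 34 had a share in endothelial-like cells above that of the erythroid-like cluster beyond both intervals. The shares were not at equal depth, so this count follows the depth gap as well. For 7 of the other 8 (Oas2, Oasl1, Irf5, Ifitm10, Oas1c, Stat5a and Ifitm1) the intervals overlapped, and they were not told apart from free RNA at these depths. Isg20 was higher in the erythroid-like barcodes, which give no background for it. Thinned to 1000 UMIs outside erythroid genes, where 58 erythroid-like barcodes remained, the shares of many members were close, with Ifitm3 at 54.0% in endothelial-like cells and 50% in erythroid-like barcodes, and the endothelial junction gene Cldn5 at 95.5% and 96.6%. Ifit1 was then at 10.2% in endothelial-like cells and 8.62% in erythroid-like barcodes, Oasl2 at 7.38% and 8.62%, Gbp3 at 7.47% and 8.62%, Ifit2 at 1.37% and 1.72% and Ifi203 at 4.21% and 6.90%. The higher unthinned shares in endothelial-like cells are therefore not read as a difference between cell types.

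Members called lower in brain in the bulk libraries were found in very different shares of these cells. Irf8 had a UMI in 0.327% of endothelial-like cells (0.215 to 0.475%), Ifi204 in 0.303% and Ifi30 in 0.278%. Gbp6 was found in 5.14%, Irf3 in 24.4% and Stat6 in 22.1%. Ifi203 was found in 12.1%, Ifi47 in 13.3% and Irf1 in 28.2% of cells. Among members called higher in brain than in lung or liver, Ifit1 was counted in 26.9% of cells and Oasl2 in 24.9%. Of the same group, Gbp3 was counted in 30.1%, Ifit2 in 5.31% and Oas2 in 3.36%. In the shallower erythroid-like barcodes the unthinned shares were 3.63% for Ifi203, 0.403% for Ifi47, 7.26% for Irf1, 6.85% for Ifit1, 5.65% for Oasl2, 9.68% for Gbp3, 1.21% for Ifit2 and 1.21% for Oas2. No UMI of the 12 interferon genes of the lists was seen in 8263 cells, which allows a share of cells with a UMI of up to 0.0363% for each (3 counts of the total, counting error only).

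Levels differed between clusters, in different directions for different families. Ifitm2 was highest in the fenestrated-like cluster, at 1559 (95% interval 1479 to 1642) CPM of UMIs, against 249.7 to 672 in the other endothelial-like clusters. Ifi203 was also highest there, at 354 (95% interval 316 to 394) CPM of UMIs, against 24.8 to 73.8. In cells thinned to 1000 UMIs the share with Ifi203 was 24.4% in the fenestrated-like cluster (unthinned 72.4%) and 7.45% in the arterial-like one (unthinned 20.7%). The same cluster was lowest for 7 of the 10 core type I targets listed below, while Ifit2, Ifi44 and Oasl1 were lowest in the venous-like cluster and Oasl1 was highest in the fenestrated-like one. Ifit1 stood at 37.1 (95% interval 25.7 to 51.9) CPM of UMIs there, against 93.3 to 165 elsewhere, Isg15 at 44.8 (95% interval 32.1 to 60.7) against 86.2 to 126, and Oasl2 at 25.1 (95% interval 15.9 to 37.7) against 61.9 to 98.9.

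The venous-like cluster was highest for Irf1, Gbp4 and Gbp5, which interferon gamma is known to induce. Irf1 stood at 273 (95% interval 252 to 296) CPM of UMIs there and at 199 in the fenestrated-like cluster, against 71.8 to 84.8 in the rest. Gbp4 was at 164 (95% interval 147 to 182) CPM of UMIs in the venous-like cluster, against 37.3 to 97.1, and Gbp5 at 164 (95% interval 147 to 182) against 62.1 to 77.9. Its neighbour family member Gbp7 was even, at 189 to 199 CPM of UMIs over all 7 clusters. Gbp2, Gbp6 and Gbp9 were also highest in the venous-like cluster, but Gbp3 was highest in the arterial-like one, at 114. Ifi47, also inducible by interferon gamma, was highest in the fenestrated-like cluster, at 85.1. A part of interferon gamma in these levels was not tested. Ifitm3 was high in both the venous-like and the arterial-like cluster, at 1768 and 1779.7 CPM of UMIs, and lowest in cluster 1, at 583, which was also the shallowest with a median of 2776 UMIs. Leukocyte markers were also highest in the arterial-like cluster, and their part was not tested.

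**Figure D4:**
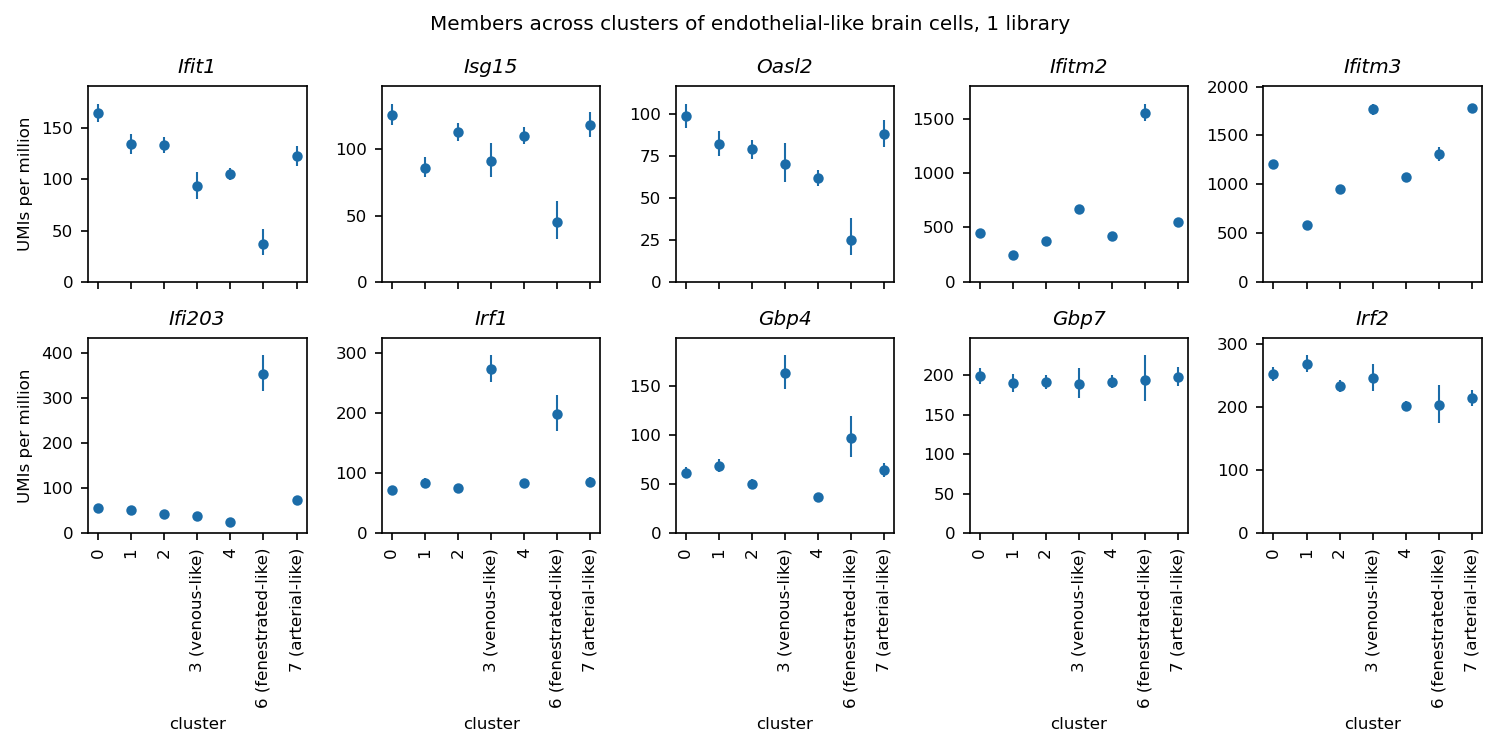
CPM of UMIs of 10 members in each of the 7 endothelial-like clusters of the brain library, with 95% exact Poisson intervals for counting error. Ifitm2 and Ifi203 peaked in the fenestrated-like cluster, Irf1 and Gbp4 in the venous-like cluster, and Gbp7 lay between 189 and 199 throughout.

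A set of 10 core type I targets (Ifit1, Ifit2, Ifit3, Ifit3b, Isg15, Oas1a, Oasl1, Oasl2, Ifi44 and Irf7) was counted per cell after thinning each cell to 1000 UMIs, which left 8261 endothelial-like cells. Of these, 31.4% held at least 1 core UMI and 68.6% none. Exactly 1 core gene was seen in 21.0%, 2 in 6.52%, 3 in 2.55% and 4 in 0.993%. There were 30 cells with 5 or more (0.363%, 95% exact interval 0.245 to 0.518%). Oasl1 is one of the 7 members not told apart from free RNA above. Without it, an alternative added after the data were seen, 31.3% held at least 1 core UMI and 25 cells held 5 or more (0.303%, 0.196 to 0.446%). Thinned, Ifit3 was at 3.56% in endothelial-like cells and 8.62% in erythroid-like barcodes, and Irf7 at 6.52% and 10.3%. Ifit2, Ifit3b and Oasl2 were also lower in endothelial-like cells, while Ifit1, Isg15, Oas1a and Ifi44 were higher. The counts per cell may thus hold free RNA of other core genes too. The 5% of cells with the most core UMIs, 413 cells, held 37.9% of all 4681 core UMIs. The 30 cells were found in 6 of the 7 clusters, none of them in the fenestrated-like cluster, where 0 of 156 cells allows up to 1.92% (3 counts of the total). Their median unthinned depth was 4507.5 UMIs, against 4639 in the rest. After thinning, no UMI of the leukocyte genes Ptprc, Tyrobp, Csf1r or Cd3e was seen in the 30 cells (95% exact interval 0 to 11.6% for each). Ptprc, Tyrobp and Cd3e were at 0 in the other 8231 cells as well, so these genes do not set the 30 cells apart. Cldn5 was in all 30 cells, but also in 96.6% of thinned erythroid-like barcodes, so it does not settle their type.

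Cells with an Ifit3 UMI more often held UMIs of other core genes. Of thinned cells with an Ifit3 UMI, 294 in all, Ifit1 was also seen in 38.4% (32.8 to 44.3%) against 9.18% (8.55 to 9.83%) of the 7967 cells without one. Isg15 was seen in 28.6% (23.5 to 34.1%) against 7.84% (7.26 to 8.46%), and Oasl2 in 19.4% (15.03 to 24.4%) against 6.94% (6.39 to 7.52%). Outside the core, Usp18 was seen in 15.6% (11.7 to 20.3%) against 3.83% (3.42 to 4.27%) and Rsad2 in 24.5% (19.7 to 29.8%) against 8.26% (7.66 to 8.89%). Factors of the pathway were also more frequent, Stat2 at 17.7% (13.5 to 22.5%) against 9.28% (8.65 to 9.93%) and Irf9 at 20.4% (16.0 to 25.5%) against 11.1% (10.4 to 11.8%), and so was Gbp7, at 30.6% (25.4 to 36.2%) against 15.4% (14.7 to 16.3%). Ifitm3 was more frequent as well, at 76.5% (71.3 to 81.3%) against 53.1% (52.0 to 54.2%), and Irf3 was less frequent, at 3.06% (1.41 to 5.73%) against 6.53% (5.99 to 7.09%). The Irf3 difference rested on 9 cells with both UMIs. It was not seen for cells with an Isg15 UMI (6.49% against 6.40%) or an Ifit1 UMI (6.04% against 6.44%), where the intervals overlapped. Ifitm2 was more frequent in cells with an Isg15 UMI, at 35.5% (32.0 to 39.2%) against 30.1% (29.1 to 31.2%). For the following the intervals overlapped between cells with and without an Ifit3 UMI. Ifitm2 was seen in 29.6% (24.4 to 35.2%) against 30.6% (29.6 to 31.7%), Ifi27 in 18.7% (14.4 to 23.6%) against 18.2% (17.3 to 19.0%) and Stat3 in 10.9% (7.56 to 15.02%) against 9.84% (9.20 to 10.5%), and the endothelial gene Cldn5 in 95.2% (92.1 to 97.4%) against 95.5% (95.0 to 95.9%).

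**Figure D5:**
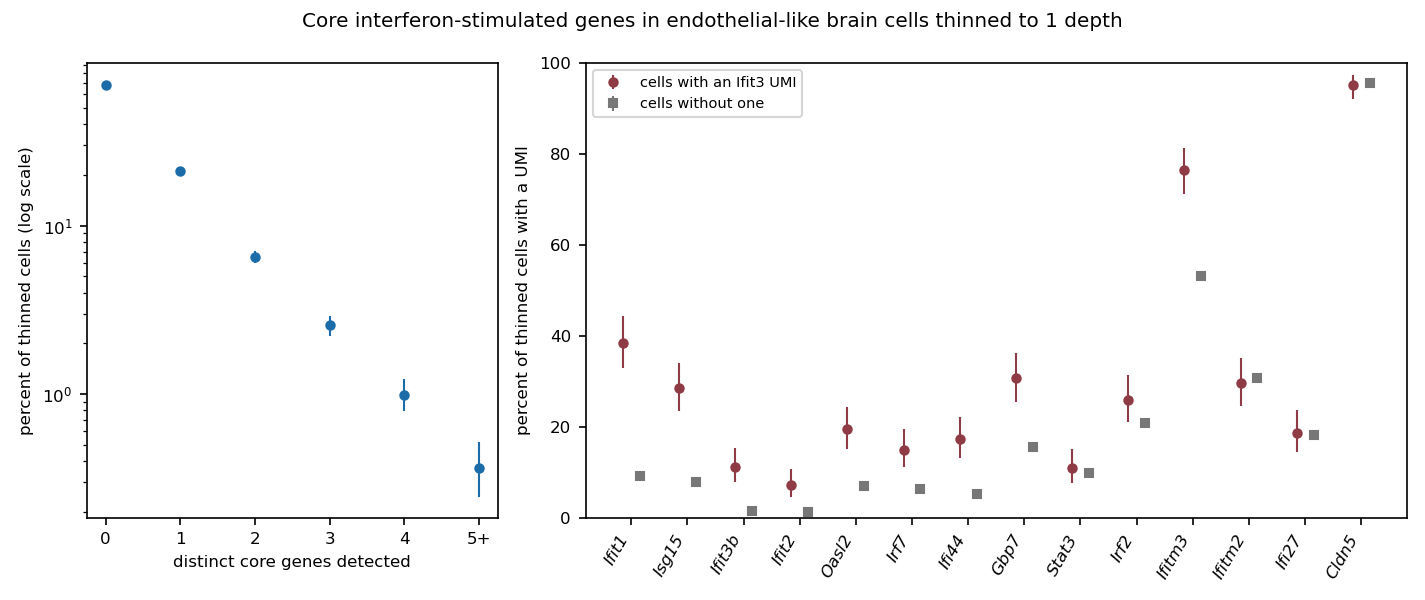
Left, percent of 8261 thinned endothelial-like brain cells (log axis) by number of distinct core genes detected; right, percent of thinned cells with a UMI of each gene among 294 cells with an Ifit3 UMI (circles) and 7967 cells without one (squares), with 95% exact binomial intervals. Core genes and Gbp7 were more frequent beside Ifit3, while the intervals of Ifitm2, Ifi27, Stat3 and Cldn5 overlapped.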

How the data were processed

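The authors' bulk values are raw counts per gene symbol in 9 libraries and their single-cell values are UMI counts of 1 library, per the file headers; both were used as deposited. HTSeq 0.6.1, SAMtools 1.10.2 and Cell Ranger 1.2.0 are named in the submitters' processing notes, as are the builds mm10 and mm9, beside aligners and peak tools; which served which assay, and strand use in counting, is not given in the sources used here. ATAC counts were not used, since no annotation of their build was at hand. The members and lists were chosen with earlier results of these data known.

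Bulk counts were tested with edgeR 4.0.16 in R 4.3.3: filterByExpr, TMM scaling and 1 robust quasi-likelihood fit of all 9 libraries with a mean per tissue, adjusted by Benjamini-Hochberg over 13216 genes. Levels are CPM of the library total, and the biological coefficient of variation was 0.766. Groups at 0 were set to a floor of 3 counts over the group. Alternatives were RLE and library-size scaling, no filter, DESeq2 1.42.0, fits of 2 tissues, leaving out Rn45s and Malat1, no minimum fold, a replicate block and leaving out each library; for pathway genes these were added after the data were seen. The fit was tested on simulated data.

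Some genes are not reported here. Members named are otherwise every Irf and Stat that passed the filter, every called member and the highest member of each family; pathway genes named are every called receptor, kinase and inhibitor and up to 4 called genes per other list by size of fold change; Ifit3, Isg15, Gbp4, Gbp10, Ifi27, Ifi205, Irf4, Ly6e, Tap1 and Usp18 were added after their values were seen. Single cells were clustered with Scanpy 1.11.5 (2000 variable genes, 30 components, 15 neighbours, Leiden resolution 0.6). Promoter sequences and gene positions came from RefSeq tables of GRCm38.p6, which matched all 64 bulk members for position. Of the 54 tested members, 17 overlap another annotated gene. Library size alone shifted the median of all genes to 0.18 (brain against liver) and 0.22 (lung against liver) on the log2 scale.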

Additional observations from a re-analysis of the deposited data

How the results depend on the processing

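No called fold change of a member or pathway gene changed sign under the alternatives to the edgeR fit; single-gene results kept their side of the threshold in 2584 cases, lost it in 124 and gained it in 36. DESeq2 lost no called member. Outside the block, calls of Ifitm2, Ifi203, Irf1, Irf8, Oas2 and Oasl2 held under every alternative run. Leaving out 1 library gave 7 to 14 members called for brain against lung (1 to 5 higher, 6 to 10 lower), 6 to 10 for brain against liver (2 to 5 higher, 4 to 6 lower) and 7 to 11 for lung against liver (2 to 6 higher, 4 to 6 lower). Members higher than in both other tissues then numbered 0 to 2 in brain, 1 to 3 in lung and 3 in liver. Library size alone gave 3 members higher in brain than in lung. DESeq2 gave 8 lower in brain than in liver and 5 higher in lung than in both others; leaving out Rn45s and Malat1 gave 1 higher in lung than in both others. The cause was not tested. Library size alone also moved the share of higher calls among all genes for lung against liver to 64.8%, against 53.4%. Same-numbered libraries of different tissues did not deviate together (correlations of -0.00345 to 0.0726). With the replicate number as a block, which does not pair them, brain against lung kept 13 of 15 calls (Ifi30 and Ifit2 lost), brain against liver 9 of 10 (Stat6 lost) and lung against liver 9 of 12 (Stat2 and Stat3 among those lost). The 42 members seen in at least 1% of cells were 45 at 0.5%, 32 at 5%, 33 after thinning, and 41 or 43 with a minimum of 500 or 2000 UMIs; with 0 doublets called, keeping them was no alternative. The stricter ISRE form GAAANNGAAACT was in 12 of 58 members, against 0.303% of genes. Lung library 2, the shallowest at 2992101 counts, has the coarsest step per count.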

Other observations

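Members were also found outside the endothelial-like cells. Isg20 had a UMI in 54.8% of erythroid-like barcodes, against 4.41% of endothelial-like cells; thinned, the shares were 31.0% and 0.968%. Ifi30 stood at 52.6 (95% interval 29.4 to 86.8) CPM of UMIs in the mural-like cluster of 48 cells (whose leading genes included Vtn, Acta2 and Rgs5), where it had a UMI in 25.0% of cells, against 0.278% of endothelial-like cells; these values come from 1 library and were not compared with others.

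The receptor genes were common in the same brain cells. Ifnar1 had a UMI in 67.7% and Ifnar2 in 65.7% of endothelial-like cells, Ifngr1 in 28.0% and Ifngr2 in 10.9%. Jak1 was seen in 34.7%, Socs3 in 11.8% and Ifnlr1, the ligand-binding chain of the interferon lambda receptor, in none of 8263 cells.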
